A study of Mus musculus with 23 samples.

Results

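The 9 genes described here, Acta2, Tagln, Cnn1, Myl9, Myh11, Pdgfrb, Rgs5, Cspg4 and Mcam, are markers of smooth muscle cells and of pericytes, the contractile cells that wrap small vessels. They were taken by symbol from a deposited table of 21264 mouse genes, and all 9 were found there, each as a single row. RNA had been sequenced in bulk from 23 libraries of iPax3 cells, a mouse embryonic stem cell line made to switch on Pax3, a muscle-lineage transcription factor, so that it forms myogenic progenitors. In 7 libraries the progenitors came from culture: 4 control libraries, labelled WT, and 3 N1OE libraries, whose cells overexpress NICD1, the intracellular domain of Notch1 that acts in the nucleus. The other 16 came from satellite cells (resident muscle stem cells) labelled as donor-derived and taken back from engrafted muscle: 9 control libraries, 4 N1OE libraries and 3 N1KO libraries, whose cells carry a Notch1 knockout. All 5 groups share the iPax3 background, and the labels give no clone, host strain, age or promoter. Nothing in them says that replicates came from separate cultures or mice. The p-values therefore cover the spread among these libraries alone, which may be technical.

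Contractile cells of vessel walls depend on a shared gene programme. Serum response factor (SRF), helped by coactivators of the myocardin family, binds CArG boxes in the promoters of smooth muscle genes such as Acta2, Tagln, Cnn1, Myl9 and Myh11. Pericytes carry the receptor Pdgfrb, through which they are recruited by PDGF-B, and the proteoglycan Cspg4 (NG2), and Notch signalling is known to direct muscle precursors toward pericyte traits. Acta2 and Myl9 are not confined to vessel walls, since myoblasts and activated fibroblasts express them too, while Myh11 is regarded as the most specific marker of differentiated smooth muscle.

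The unit of level is CPM, a gene's read count after every library is scaled to the same total. Library totals were 11637817 to 29154176 reads, so that 3 reads, the limit used for a gene without reads, were worth 0.258 CPM at the lowest total and 0.103 CPM at the highest. Notch1 reads were 297 to 370 CPM in cultured N1OE against 61.3 to 105 CPM in cultured controls. After engraftment they were 15.6 to 52.6 CPM in N1KO, 14.9 to 174 CPM in controls and 98.1 to 257 CPM in N1OE. The part of Notch1 that was deleted is not stated, so remaining reads do not check the knockout. The satellite cell marker Pax7 was at 11.5 to 154 CPM in the 16 re-isolated libraries and at most 0.891 CPM in culture, where the sum of 9 satellite cell and myoblast markers was nevertheless 661 to 1943 CPM. Among re-isolated controls, the headers of 5 (replicates 1, 4, 7, 8 and 9) end in the letters GoF, which the labels do not explain, and those of the other 4 (replicates 2, 3, 5 and 6) do not. These are called marked and unmarked controls, and they are given apart because some markers differed between them. The mark also ends the sample descriptions of these controls, except for replicate 7, whose description lacks it. Unless stated, the sets are split by header, and a split by description moves replicate 7 to the unmarked set. In culture the letters GoF end the headers of all 4 controls and of N1OE replicate 1, but not those of N1OE replicates 2 and 3. No re-isolated N1OE or N1KO header has them. In culture the mark thus goes largely with the group, and its part in the differences there was not tested. Cultured and re-isolated cells were also made into libraries with different kits, so setting and kit cannot be told apart.

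Promoter sequences are shown first for Acta2 and Myl9, which passed the test as lower in N1OE in both settings, for Cnn1, which passed as lower in culture, and for Rgs5, which passed in the opposite direction in re-isolated cells. They are the 250 bases upstream of the start in RefSeq's table (build GRCm38.p6), read 5′ to 3′ on the strand of the gene, with CArG boxes and matches that miss 1 base of a CArG box in capitals.
Acta2, chr19:34255374-34255623, minus strand: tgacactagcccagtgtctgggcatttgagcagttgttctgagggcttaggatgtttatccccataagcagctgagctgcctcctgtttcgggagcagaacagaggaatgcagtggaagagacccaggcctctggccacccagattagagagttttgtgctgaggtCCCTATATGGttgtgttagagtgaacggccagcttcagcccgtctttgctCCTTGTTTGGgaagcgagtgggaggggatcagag
Myl9, chr2:156775214-156775463, plus strand: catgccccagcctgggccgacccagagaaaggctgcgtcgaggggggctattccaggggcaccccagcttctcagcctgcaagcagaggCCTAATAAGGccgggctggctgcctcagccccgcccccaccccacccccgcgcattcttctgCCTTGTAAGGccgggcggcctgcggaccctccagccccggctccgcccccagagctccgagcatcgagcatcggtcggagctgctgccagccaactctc
Cnn1, chr9:22099003-22099252, plus strand: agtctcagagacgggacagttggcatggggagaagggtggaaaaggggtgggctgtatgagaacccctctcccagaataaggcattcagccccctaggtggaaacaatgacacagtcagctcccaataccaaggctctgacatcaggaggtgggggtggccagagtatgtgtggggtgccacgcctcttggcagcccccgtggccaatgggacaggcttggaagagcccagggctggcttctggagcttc
Rgs5, chr1:169655251-169655500, plus strand: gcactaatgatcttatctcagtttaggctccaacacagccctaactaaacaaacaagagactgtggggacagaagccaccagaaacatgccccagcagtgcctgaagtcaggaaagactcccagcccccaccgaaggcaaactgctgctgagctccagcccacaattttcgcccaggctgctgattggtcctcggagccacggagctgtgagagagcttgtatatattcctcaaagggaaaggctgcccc
The table held 6 of the 9 markers. Motifs were searched on both strands in its windows of 250 bases before and 50 bases after the start. An exact CArG box stood in the Myl9 window alone, 161 bases upstream of the start, and such a box was found in 1.63% of 32817 windows. Matches missing 1 base stood 84 and 34 bases upstream in Acta2, 99 bases upstream in Myl9 and, as an overlapping pair, 238 and 237 bases upstream in Cspg4, against 19.9% of all windows with at least 1. In Acta2 the core letters of RBPJ, the factor to which NICD1 binds, TGGGAA, began 27 bases upstream and overlapped the nearer CArG-like match. These letters were found in 25.6% of windows, and no other marker window held them. The MCAT element GGAATG, found in 14.7% of windows, stood 146 bases upstream in Acta2 alone among the 6. The E-box CANNTG was found in the windows of Acta2, Cnn1, Myl9, Rgs5 and Mcam and in 72.3% of all windows. A match is a description of these letters, and a window without a match says only that the letters are not within it.

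**Figure D1:**
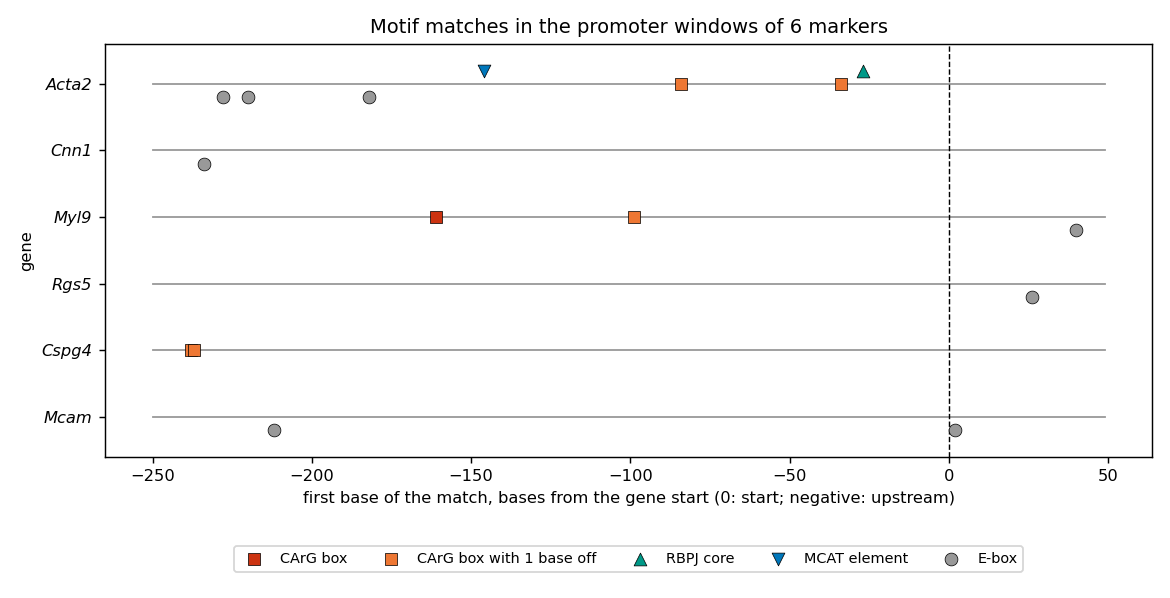
Motif matches in the promoter windows of the 6 markers held by the RefSeq table, by the distance in bases of the first base of each match from the gene start (negative values lie upstream). The Acta2 and Myl9 windows each hold a pair of CArG or CArG-like matches, and those of Cnn1, Rgs5 and Mcam hold an E-box and no CArG match.

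The markers differed widely in level. Per kb of exon, Acta2, the smooth muscle actin, had the highest mean level of the 9 in re-isolated controls, 791 CPM per kb, followed by Myl9, the regulatory light chain of smooth muscle myosin, with 158 CPM per kb. Pdgfrb (14.4 CPM per kb) and Rgs5 (14.2 CPM per kb) came next, then Mcam (6.21), Cspg4 (2.98), Cnn1 (1.65), Tagln (1.07) and Myh11 (0.446 CPM per kb). The markers of differentiated smooth muscle other than Acta2 and Myl9 were therefore near the bottom: Tagln did not exceed 3.43 CPM in any library. Cnn1 exceeded 10 CPM in N1KO replicate 3 alone, and Myh11 in re-isolated N1OE replicate 3 and N1KO replicates 2 and 3. Tagln values are uncertain for another reason too. The gene lies at chr9:45929619-45936058 (GRCm38/mm10, minus strand), and 67.9% of its exon bases are overlapped by genes of the opposite strand, the antisense gene Gm48529 and Pcsk7. Whether counting used the strand is not given in the sources used here.

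**Figure D2:**
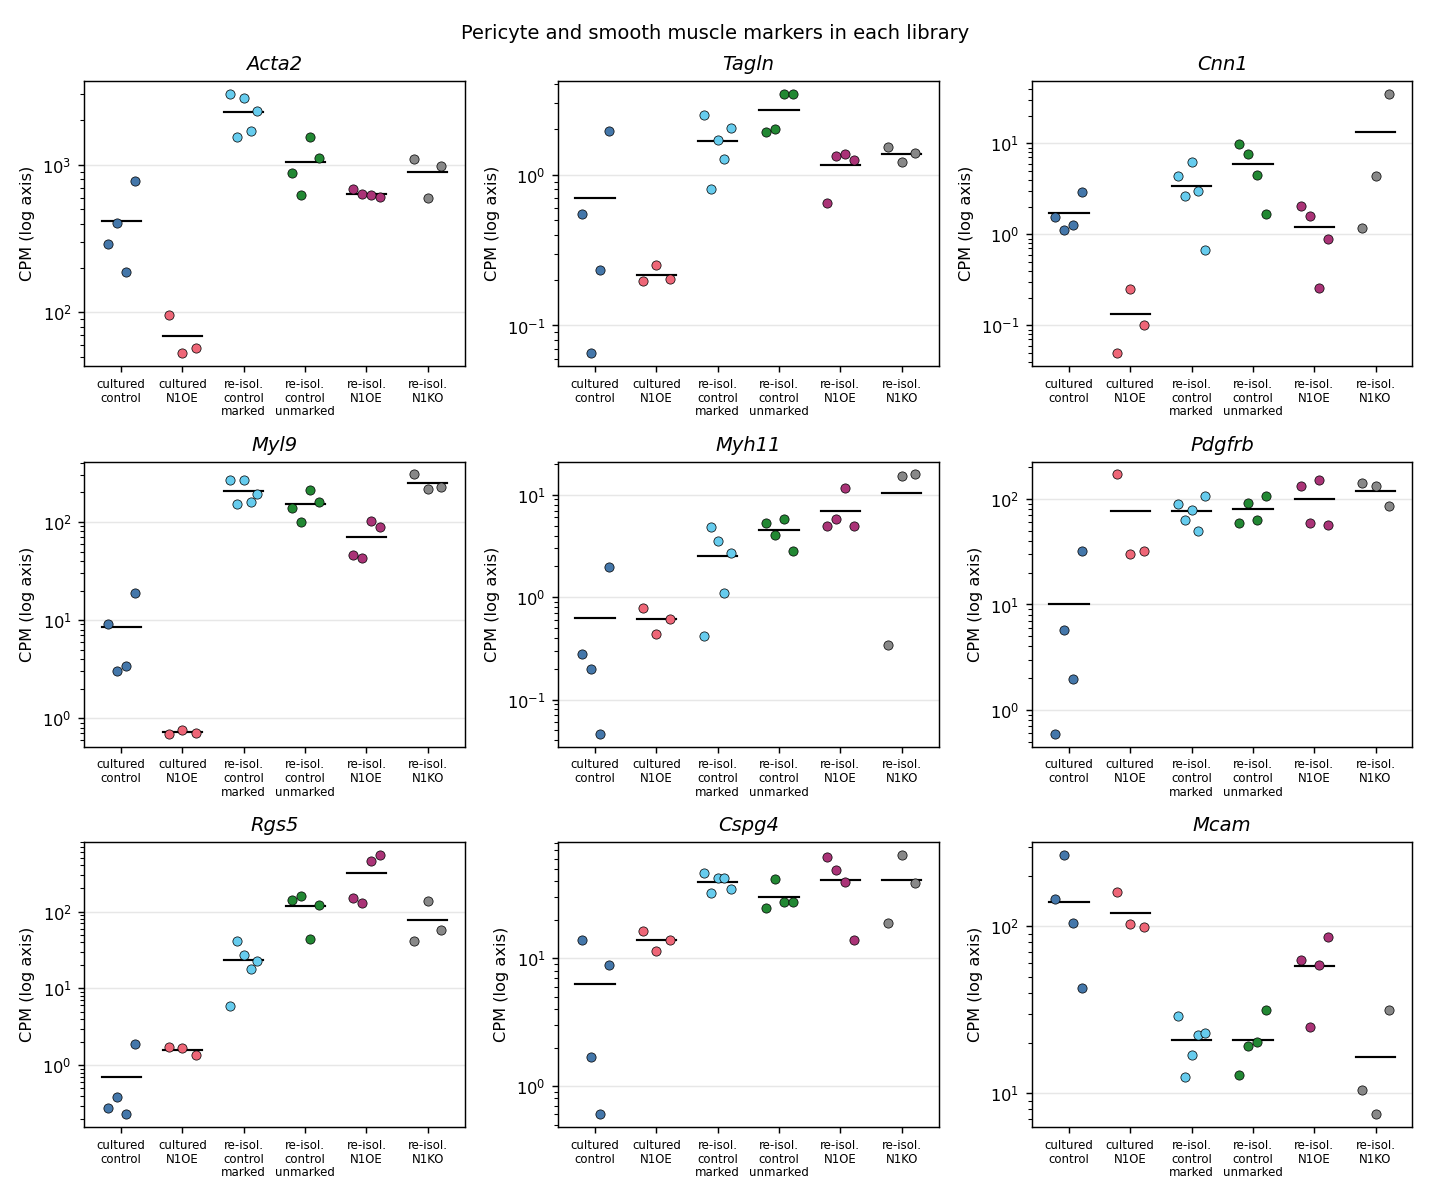
Level of each marker in each of the 23 libraries, in CPM on a log axis, with re-isolated controls split by the mark in their column headers. Points are libraries and bars are group means. Acta2, Myl9 and Cnn1 lie below the controls in all 3 cultured N1OE libraries.

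In culture, N1OE cells had less of 3 contractile markers. Acta2 was 5.44-fold lower, Cnn1 9.63-fold lower and Myl9 8.42-fold lower, and in each of them all 3 N1OE libraries lay below all 4 controls. In bulk libraries such as these, fewer cells of a type and less RNA per cell cannot be told apart. None of the pericyte markers passed the test in culture, although Pdgfrb, Rgs5 and Cspg4 had estimates above 0. Of the 7 markers tested, 3 passed, all as lower, while 10.8% of the 12314 genes tested passed in either direction (4.73% as higher and 6.03% as lower). All N1OE libraries lay below all controls for 13.7% of genes and above them for 21.1%, the latter true of no marker tested. The tests were made with limma on log2 CPM, with p-values adjusted after Benjamini-Hochberg over all genes tested, errors are standard errors, and 0.05 was the threshold.

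Acta2 (chr19:34241090-34255590, minus strand) was at 289, 406, 188 and 772 CPM in the cultured controls and at 96.0, 52.9 and 57.4 CPM in N1OE. The groups did not overlap, and the lowest control stood above the highest N1OE library. The log2 change was -2.44 ± 0.47 (adjusted p = 0.0226 by limma, n = 4 and 3). Myl9 (chr2:156775420-156781658, plus strand) was at 9.01, 3.01, 3.39 and 18.8 CPM in the controls and at 0.693, 0.755 and 0.711 CPM in N1OE, which rested on 12 to 14 reads a library. The N1OE libraries lay close together while the controls spread 6.24-fold. The log2 change of Myl9 was -3.07 ± 0.64 (adjusted p = 0.0296 by limma).

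Cnn1 (chr9:22099216-22109630, plus strand), the actin-binding calponin of smooth muscle, was low in both groups. It was at 1.56, 1.11, 1.25 and 2.91 CPM in the controls and at 0.0495, 0.252 and 0.102 CPM in N1OE, where 1 to 4 reads were counted in a library. Its log2 change was -3.27 ± 0.56 (adjusted p = 0.0164 by limma), a size that depends on the prior count and came to -1.22 on the log2(CPM + 1) scale. Each of these 3 calls was lost when any single N1OE library was left out, with adjusted p from 0.0538 to 0.110 for Acta2, 0.05001 to 0.0844 for Cnn1 and 0.0984 to 0.122 for Myl9. The Acta2 call was also lost without control 2 (0.0629), and the Myl9 call without control 1 (0.0516). Cultured N1OE replicates 2 and 3 were closer to each other (chi-square over degrees of freedom 3.31) than either was to replicate 1 (29.7 and 35.0). With their mean taken as 1 library no marker passed.

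Tagln, an actin-binding protein of smooth muscle, and Myh11 (chr16:14194535-14291372, minus strand), its myosin heavy chain, were too low in culture to be tested. Tagln had 1 to 33 reads in the control libraries and 4 in each N1OE library. Myh11 had 1 to 33 reads in the controls and 7 to 16 in N1OE.

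Among the pericyte markers, Pdgfrb (chr18:61045150-61085061, plus strand) was at 0.597, 5.76, 1.95 and 31.9 CPM in the cultured controls and at 170, 30.0 and 32.1 CPM in N1OE. Control 4 reached the level of N1OE replicates 2 and 3, and N1OE replicate 1 stood above all others. The log2 change was 3.79 ± 1.31 with an adjusted p of 0.100 by limma. Without control 4 it was 4.80 and passed (adjusted p = 0.0253 by limma).

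Rgs5 (chr1:169655501-169695813, plus strand), a regulator of G-protein signalling used as a pericyte marker, was at 0.276, 0.393, 0.232 and 1.90 CPM in the cultured controls and at 1.73, 1.70 and 1.37 CPM in N1OE. Again control 4 alone reached the N1OE range. The log2 change of Rgs5 was 1.62 ± 0.70 (adjusted p = 0.159 by limma) and 2.24 without control 4 (0.0154). Cspg4 (chr9:56865033-56899870, plus strand) was at 13.8, 1.70, 0.603 and 8.92 CPM in the controls and at 16.3, 11.3 and 13.8 CPM in N1OE, with a log2 change of 1.98 ± 1.02 (adjusted p = 0.219 by limma). The controls were the more variable group for this proteoglycan too, spreading 22.9-fold.

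Mcam (chr9:44134469-44142727, plus strand), the adhesion molecule CD146 of pericytes, endothelium and smooth muscle, was the most abundant pericyte marker of the cultured controls. It was at 145, 268, 105 and 42.9 CPM there and at 160, 103 and 99.5 CPM in N1OE, inside the control range. The log2 difference was 0.04 with a 95% interval from -1.29 to 1.36, which does not show that the groups were alike.

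Other genes of the contractile programme were counted in lists. Of 15 smooth muscle contractile genes outside the markers, 14 were tested in culture, of which 4 fell and none rose, with a median log2 change of -0.76 against 0.07 for all genes tested. Those that fell were Csrp1 (log2 -1.23 ± 0.16), Nexn (-2.09 ± 0.31), the intermediate filament desmin, Des (-3.66 ± 0.62), and Lmod1 (-2.41 ± 0.60), with adjusted p of 0.00834, 0.0112, 0.0162 and 0.0471 by limma. Nexn and Des also belong to striated muscle, and the skeletal and cardiac actins Acta1 and Actc1, close relatives of Acta2, fell by 4.92 ± 1.13 and 4.06 ± 1.04 on the log2 scale. Of 5 smooth muscle regulators tested, 2 were lower, the SRF coactivator Mrtfa (-0.63 ± 0.09, adjusted p = 0.0102 by limma) and the mesenchymal factor Foxf1 (-3.33 ± 0.72, 0.0325), while Srf itself gave -0.21 ± 0.15 (0.375). Of 6 other pericyte genes tested, 2 rose, Notch3 (1.63 ± 0.21) and Heyl (5.48 ± 0.89), and both are also direct Notch targets. Of 8 TGF-beta and SRF responsive matrix genes tested, 3 fell, Thbs1, Tgfbi and Ccn2, and Tgfb1 rose, whereas in re-isolated N1OE none of the 8 passed.

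In re-isolated satellite cells, N1OE libraries again had less Acta2 (2.43-fold) and Myl9 (2.68-fold) than the 9 controls, and more Rgs5 (6.38-fold) and Mcam (2.66-fold). The other 5 markers did not pass. All 9 markers were tested, and 4 passed against 7.06% of the 14155 genes tested (3.78% higher and 3.29% lower). In no marker did all N1OE libraries lie below all 9 controls, which 1.82% of genes did, or above them (2.98%). The Acta2 and Rgs5 values depended on which controls were used.

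Acta2 was at 692, 639, 621 and 602 CPM in the 4 re-isolated N1OE libraries, a spread of 1.15-fold. The controls ranged from 627 to 3023 CPM with a median of 1551 CPM. The marked controls were at 3023, 1541, 2857, 1699.8 and 2336 CPM and the unmarked ones at 884, 627, 1551 and 1118 CPM. Unmarked replicate 3 lay inside the N1OE range, and every marked control was above it. Against all controls the log2 change of Acta2 was -1.28 ± 0.38 (adjusted p = 0.0458 by limma, n = 4 and 9). Against the marked set it was -1.79 (0.000846), and against the unmarked set -0.64 (0.193). The call against all controls was lost in 12 of the 16 fits that left out 1 library, with an adjusted p of at most 0.115, and without a filter on low values (0.0965).

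Myl9 was at 46.1, 42.9, 103 and 89.0 CPM in re-isolated N1OE and at 101 to 268 CPM in the controls, with a control median of 158 CPM. N1OE replicate 3 reached the lowest control, replicate 3, and the other N1OE libraries lay below every control. The log2 change was -1.42 ± 0.30 (adjusted p = 0.00533 by limma), -1.62 (0.00187) against the marked and -1.17 (0.0201) against the unmarked controls. The Myl9 call was kept in all 16 fits that left out 1 library, with an adjusted p of at most 0.0352.

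Rgs5 was at 149, 131, 451 and 544 CPM in re-isolated N1OE. The marked controls were at 5.98, 41.6, 26.9, 18.1 and 23.1 CPM and the unmarked ones at 139, 161, 44.5 and 121 CPM. All N1OE libraries stood above all marked controls, whereas unmarked replicates 2 and 3 lay above N1OE replicate 2, the lowest of its group. The log2 change was 2.67 ± 0.68 against all controls (adjusted p = 0.0211 by limma), 3.75 (5.44e-05) against the marked set and 1.33 (0.0602) against the unmarked set. Leaving out N1OE replicate 3 or 4 lost the call against all controls (adjusted p = 0.0894 and 0.0881 by limma).

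Mcam was at 62.6, 24.9, 58.6 and 86.2 CPM in re-isolated N1OE and at 12.5 to 31.4 CPM in the controls, with a median of 20.1 CPM. N1OE replicate 2 lay inside the control range and the other 3 above it. The log2 change of Mcam was 1.41 ± 0.38 (adjusted p = 0.0292 by limma), and it was 1.41 against the marked set (0.0360) and 1.41 against the unmarked set (0.0324) with controls split by header. Split by description, Mcam passed against neither set, at 1.35 (0.0742) and 1.46 (0.0511), while Acta2, Myl9 and Rgs5 stayed on the same side of the threshold as in the split by header. The Mcam call was lost when N1OE replicate 1, 3 or 4 was left out (0.0791, 0.0887 and 0.106).

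**Figure D3:**
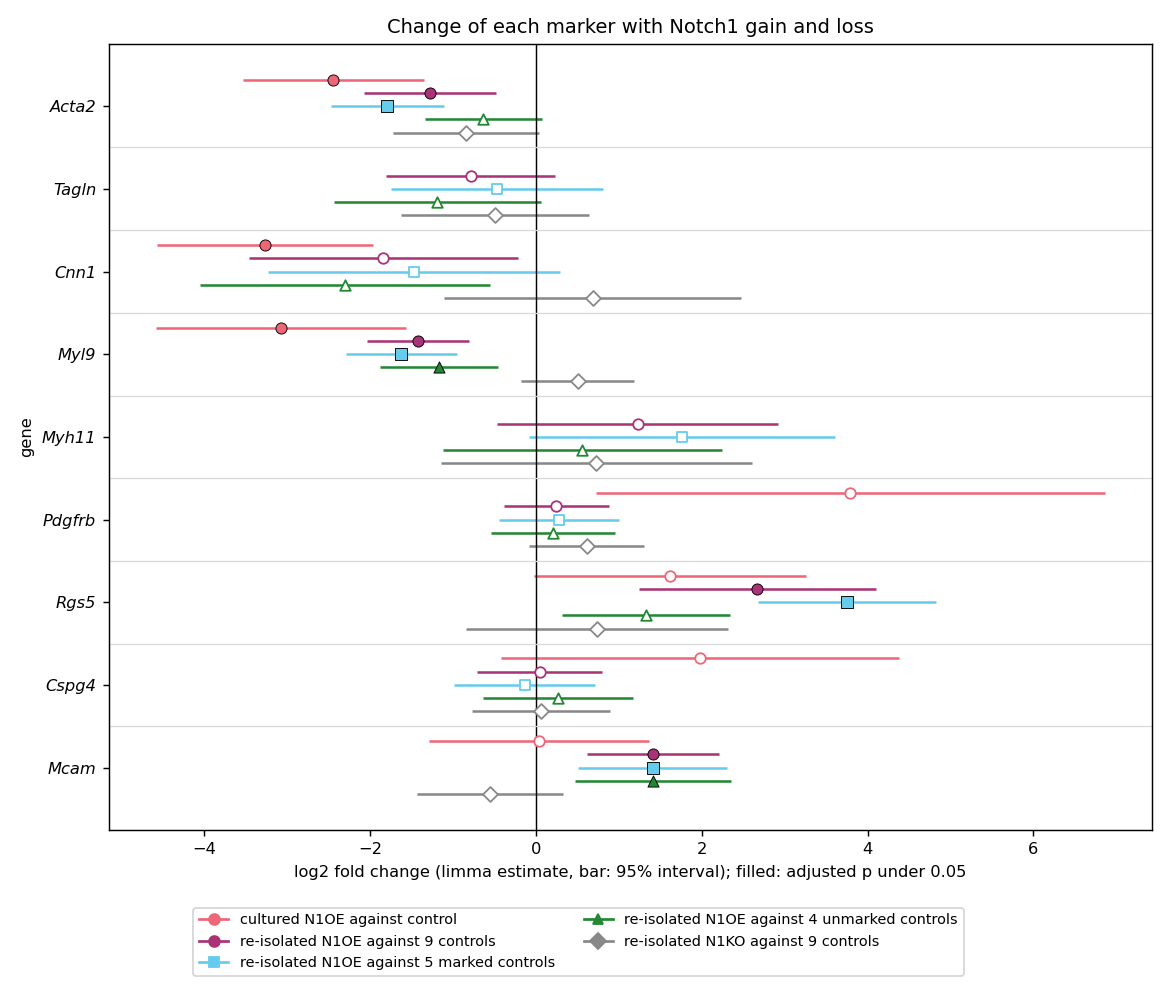
Estimated log2 change of each marker in cultured and re-isolated N1OE and in N1KO against their controls, with 95% intervals from limma. Filled symbols passed an adjusted p of 0.05, and a marker without a symbol was too low to be tested. With controls split by header, Myl9 and Mcam pass against either set of re-isolated controls, while Acta2 and Rgs5 pass against the marked set alone.

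Of the markers that did not pass, Cnn1 was at 2.06, 1.60, 0.258 and 0.882 CPM in re-isolated N1OE and at 0.681 to 9.87 CPM in the controls (median 4.39). Its log2 change was -1.84 ± 0.78 (adjusted p = 0.159 by limma). Tagln was at 0.652 to 1.37 CPM in N1OE and 0.804 to 3.43 CPM in controls, with a log2 change of -0.79 ± 0.49 (0.353). Myh11 was at 5.01, 5.83, 11.8 and 4.93 CPM in N1OE against 0.415 to 5.74 CPM in the controls, with a log2 change of 1.23 ± 0.81 (0.384). The contractile markers thus did not all have estimates of the same sign.

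The surface markers Pdgfrb and Cspg4 did not pass between re-isolated N1OE and controls. Pdgfrb was at 133, 58.5, 150 and 57.1 CPM in N1OE and 49.8 to 108 CPM in the controls, and its log2 difference of 0.25 had a 95% interval from -0.38 to 0.88. Cspg4 was at 61.7, 48.7, 39.3 and 13.8 CPM in N1OE and 24.6 to 46.7 CPM in the controls, with a difference of 0.04 and an interval from -0.71 to 0.79. Neither interval reached 1.41, the log2 change of Mcam, but both overlapped its own 95% interval from 0.61 to 2.21. Whether these markers changed differently from Mcam was not tested.

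Of the 15 other contractile genes, 3 fell in re-isolated N1OE and none rose, with a median log2 change of -0.74 against 0.06 for all genes tested. Those were the tropomyosins Tpm2 (-2.18 ± 0.38, adjusted p = 0.00145 by limma) and Tpm1 (-1.57 ± 0.35, 0.00954) and the enteric smooth muscle actin Actg2 (-4.10 ± 1.17, 0.0386). Mrtfa was lower here too, by 1.14 ± 0.32 on the log2 scale (0.0348), as the only regulator of 7 that passed. Of 19 close relatives of the markers, 2 were higher and 2 lower in N1OE, with a median log2 change of -0.31. Among them the calponin relative Cnn2 fell (-1.94 ± 0.32, 0.000730), and Rgs4, a close relative of Rgs5, rose (1.96 ± 0.45, 0.0109). Of the same 19, 3 were higher and 3 lower in the marked than in the unmarked controls.

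Of the 16 other pericyte genes tested in re-isolated cells, 2 rose in N1OE and 1 fell. The estimates of 13 were above 0, with a median log2 change of 0.86 against 0.06 for all genes tested. Their summed level was 1108 to 1359 CPM in N1OE. It was 258 to 627 CPM in the marked controls and 1213 to 1747 CPM in the unmarked ones. P2ry14, a receptor for UDP sugars, was at 35.9 to 103 CPM in N1OE and 10.2 to 23.9 CPM in controls (log2 2.19 ± 0.42, adjusted p = 0.00257 by limma). Tbx18, a transcription factor of mural cells, was at 12.4 to 18.4 CPM in N1OE and 0.182 to 7.65 CPM in controls (2.78 ± 0.67, 0.0156). A high Tbx18 level was not particular to N1OE. In N1KO it was at 4.52, 4.42 and 4.01 on the log2 CPM scale, where N1OE was at 3.88, 3.64, 4.16 and 4.21. Against the controls, 0 of the 16 genes passed in N1KO. Cd248 (endosialin) was at 8.51 to 22.2 CPM against 24.0 to 74.4 CPM (-1.63 ± 0.34, 0.00592). Pdgfb, the ligand of Pdgfrb, was at 21.5 to 43.4 CPM in N1OE against 1.39 to 11.7 CPM in controls, and it rose by 2.73 ± 0.45 on the log2 scale (0.000862). The ligand thus rose in libraries in which its receptor Pdgfrb did not pass the test.

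Markers of other cells were compared between the same groups. The summed level of 8 endothelial markers was 44.3 to 99.9 CPM in re-isolated N1OE and 6.38 to 45.995 CPM in the controls, and 2 of the 8 passed as higher. The sum of 5 Schwann cell and glial markers was 191 to 379 CPM against 48.5 to 253 CPM, and 1 of the 4 tested passed as higher. The sum of 7 fibro-adipogenic markers was 920 to 1573 CPM against 266 to 10045 CPM, and that of 6 macrophage markers 22.8 to 118 CPM against 36.6 to 552 CPM, with 1 of each list lower and the fibro-adipogenic sum of N1OE inside the control range. Estimates were above 0 for 8 of 8 endothelial, 4 of 4 glial, 2 of 7 fibro-adipogenic and 1 of 6 macrophage markers tested. The endothelial median log2 change was 1.42, against 0.06 for all genes tested. Cdh5, which defines endothelium, was at 0.985 to 5.84 CPM in N1OE, and Ptprc, which defines leukocytes, at 0 to 1.72 CPM. These levels do not give the share of such cells in a library. The part of these other cells in the changes of the 9 markers was not tested.

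Split by header, the marked and unmarked re-isolated controls differed in Acta2 and Rgs5 without any difference in the labelled genotype. Acta2 was 2.23-fold higher in the marked set, with a log2 difference of 1.16 ± 0.32 (adjusted p = 0.0191 by limma, n = 5 and 4). Unmarked replicate 5 (1551 CPM) lay just above marked replicate 4 (1541 CPM), and the sets otherwise did not overlap. Rgs5 was 5.37-fold lower in the marked set (-2.42 ± 0.52, 0.00576), and here every marked library (5.98 to 41.6 CPM) lay below every unmarked one (44.5 to 161 CPM). These were 2 of the 9 markers, against 27.6% of the 13230 genes tested, and 13.0% of genes had every marked library below every unmarked one. Split by description, an alternative added after seeing the data, limma called 0 of 9 markers and 0 of 13230 genes. Acta2 then gave 0.76 (adjusted p = 0.363 by limma) and Rgs5 -2.15 (0.250), the only marker with an unadjusted p under 0.05, and replicate 7 (2857 CPM of Acta2, 26.9 CPM of Rgs5) brought the Rgs5 ranges to overlap too. Over all genes, replicate 7 was closer to the other controls marked by header than to the unmarked ones. Its chi-square over degrees of freedom was 72.3 to 181 with the former and 331 to 549 with the latter. In the split by header, the Acta2 call was lost without unmarked replicate 2 or 3 or marked replicate 7 (adjusted p = 0.0531, 0.0677 and 0.0511 by limma).

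For the other 7 markers no difference between the control sets passed. Mcam had close means in both, 20.7 CPM ± 6.24 (SD, n = 5) in the marked and 20.9 CPM ± 7.71 (SD, n = 4) in the unmarked set, with a 95% interval of the log2 difference from -0.69 to 0.70. Myl9 gave 0.45 ± 0.27 (adjusted p = 0.234 by limma), Cspg4 0.40 ± 0.23 (0.212) and Pdgfrb -0.07 ± 0.27 (0.867). Cnn1, Tagln and Myh11 had estimates below 0, at -0.83, -0.72 and -1.20.

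Other pericyte genes also differed between the control sets as split by header. Of 16 tested, 8 were lower and 1 higher in the marked set, where 14% of all genes were lower and 13.6% higher, with a median log2 difference of -1.58 against 0.00 for all genes. Cox4i2, a subunit of cytochrome oxidase typical of pericytes, was at 0.909 to 5.71 CPM in the marked and 63.8 to 99.6 CPM in the unmarked controls (-5.30 ± 0.48, adjusted p = 0.000100 by limma). Ndufa4l2, a related mitochondrial protein, was at 1.83 to 56.2 CPM against 310 to 709 CPM (-5.10 ± 0.81, 0.00132), and Gja4, the connexin of small arteries, at 0 to 1.25 CPM against 2.05 to 17.5 CPM. Of the 15 other contractile genes, 4 were lower and 2 higher in the marked set, with a median log2 difference of -0.31. Pax7 (-1.35 ± 0.42) and Des (-1.39 ± 0.37) were lower in the marked set as well, whereas the fibro-adipogenic sum was 1688 to 10045 CPM in the marked and 266 to 1165 CPM in the unmarked controls, and the macrophage sum 61.8 to 552 CPM against 36.6 to 126 CPM. Of 8 Notch targets, 6 were lower and 0 higher in the marked set, with a median log2 difference of -1.79. They summed to 159 to 965 CPM in the marked and 1292 to 1618 CPM in the unmarked controls. Re-isolated N1OE, at 1275 to 1984 CPM, overlapped the unmarked set. Against all 9 controls, 1 of the 8 targets passed as higher in re-isolated N1OE. Genes seen with a single read outnumbered those seen with 2 by 4.17 to 5.91 times in the marked controls. In the unmarked ones they did so by 1.08 to 1.502 times. The labels do not explain this single-read ratio. In N1KO that ratio was 1.25 to 1.398, and in the engrafted N1OE libraries 4.18 to 6.82. The part of each of these in the Acta2 and Rgs5 differences was not tested. Nor was that of the single-read ratio in the comparisons of N1OE and N1KO with these controls.

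**Figure D4:**
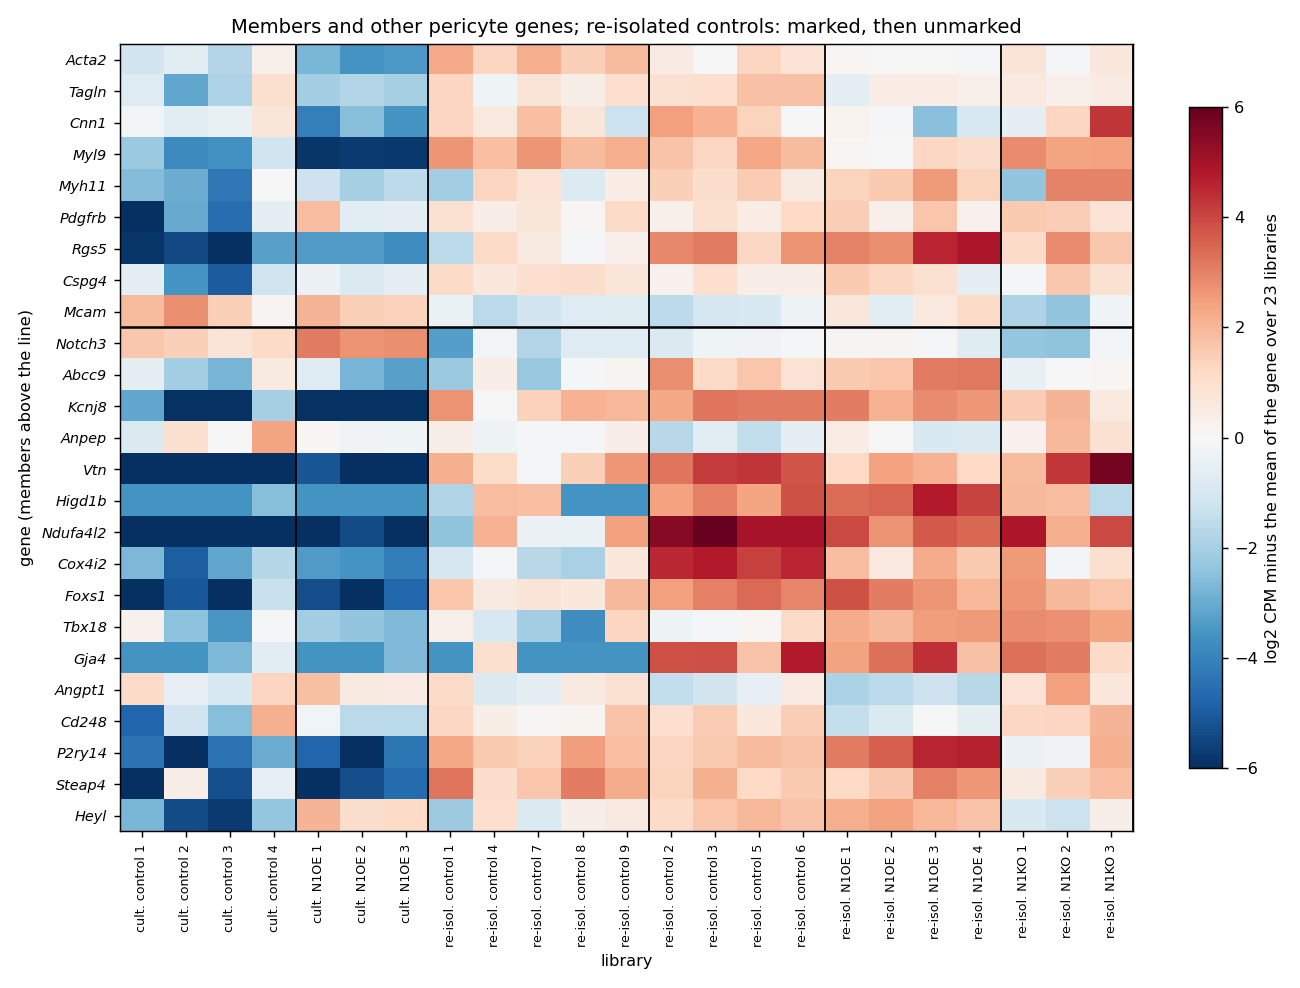
The 9 markers (above the line) and 16 other pericyte genes in each library, as log2 CPM minus the mean of the gene over the 23 libraries (red high, blue low, scale limited to 6 in each direction). Cox4i2, Ndufa4l2 and Gja4 are lower in every marked re-isolated control (replicates 1, 4, 7, 8 and 9) than in every unmarked one, and Rgs5 is lower in every cultured library than in every re-isolated one.

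**Figure D5:**
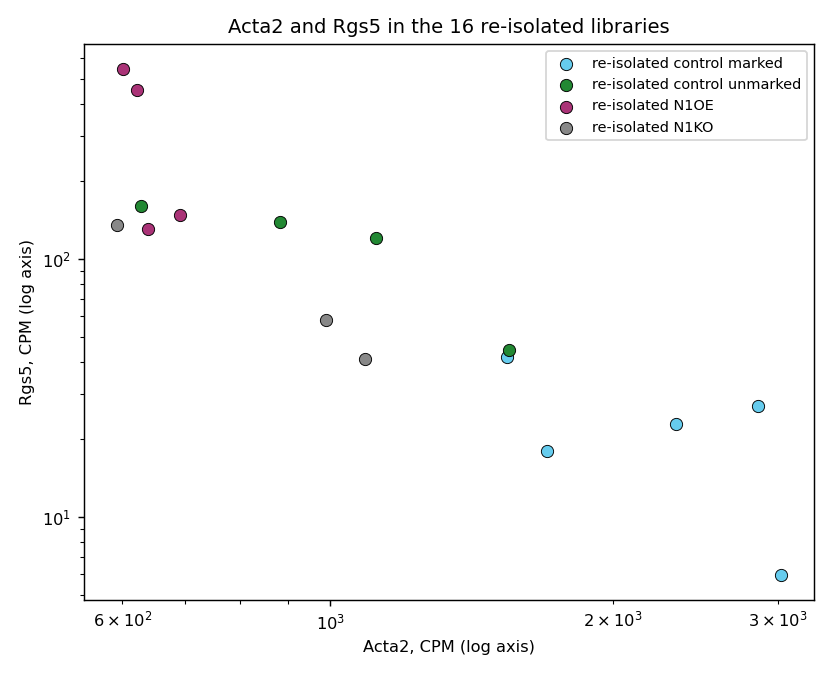
Acta2 against Rgs5 in the 16 re-isolated libraries, both in CPM on log axes. The 5 marked controls have 5.98 to 41.6 CPM of Rgs5 and at least 1541 CPM of Acta2, and the 4 N1OE libraries have 602 to 692 CPM of Acta2 with at least 131 CPM of Rgs5.

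No marker passed the test in N1KO cells, which were set against the same 9 re-isolated controls as N1OE. By limma 0 of 9 passed, where 0.657% of genes did (0.466% as higher and 0.191% as lower), and 0 of 9 had an unadjusted p under 0.05. Limma-voom on recovered reads also called 0, with Acta2 at an unadjusted p under 0.05. Acta2 was at 1089.7, 592 and 989 CPM in N1KO, a log2 change of -0.85 ± 0.42 (adjusted p = 0.457 by limma). Against the marked controls alone it was -1.36 and passed (0.0368; 0.101 with the sets split by description), and against the unmarked ones it was -0.20 (0.832).

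Myl9 was at 305, 220 and 229 CPM in N1KO, replicate 1 lying above every control and the other two within the control range, with a log2 change of 0.50 ± 0.33 (adjusted p = 0.614 by limma). Pdgfrb was at 141, 132 and 85.1 CPM (0.61 ± 0.33, 0.515), and 2 of the 3 libraries lay above every control. In no marker did all 3 lie above every control, which 2.85% of genes did, or below them (0.961%). Rgs5 was at 41.1, 135 and 58.3 CPM (0.74 ± 0.76, 0.786), Mcam at 10.5, 7.49 and 31.6 CPM (-0.55 ± 0.42, 0.689) and Cspg4 at 19.0, 64.2 and 38.7 CPM (0.06 ± 0.40, 0.980). For Rgs5 the estimate turned to -0.61 against the unmarked controls. 

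Cnn1 and Myh11 varied widely between N1KO libraries. Cnn1 was at 1.18, 4.40 and 34.9 CPM there, a spread of 29.6-fold, and Myh11 at 0.337, 15.4 and 15.8 CPM, a spread of 46.8-fold. Replicate 1 was the low library for both, while its Tagln (1.52 CPM) was the highest of the 3, in a group that spread 1.25-fold for that gene. Endothelial markers summed to 56.3 to 164 CPM in N1KO, and 4 of 8 passed as higher than in controls, Cldn5, Pecam1, Emcn and Kdr. Their part in the spread was not tested.

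Between the engrafted groups with Notch1 gained and lost, 2 of the 9 markers differed, against 7.35% of genes (2.92% higher and 4.43% lower in N1OE). Myl9 was 3.80-fold lower in N1OE, with all 4 N1OE libraries (42.9 to 103 CPM) below all 3 N1KO libraries (220 to 305 CPM). That log2 difference was -1.93 ± 0.38 (adjusted p = 0.00340 by limma), and 12.1% of genes had every N1OE library below every N1KO library (11.2% above). Mcam was 3.89-fold higher in N1OE (1.96 ± 0.49, 0.0168), where N1OE replicate 2 (24.9 CPM) lay below N1KO replicate 3 (31.6 CPM). Rgs5 gave 1.93 ± 0.87 (0.184) and Cnn1 -2.52 ± 0.99 (0.127), and neither passed in the fit that shares its spread with the controls. Fitted from these 2 groups alone, Rgs5 passed (0.0122). The Mcam call was lost without N1KO replicate 1 or 2 or N1OE replicate 4 (0.0943, 0.123 and 0.0510). The single-read ratio given above also split these groups, at 4.18 to 6.82 in N1OE and 1.25 to 1.398 in N1KO. Genotype and whatever sets this ratio thus cannot be told apart here, and the part of the latter in these differences was not tested.

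Re-isolated cells had much more of most markers than cultured cells, in a comparison that cannot separate setting from library kit. Among controls 8 of 9 markers passed, 7 as higher and Mcam as lower, against 58.1% of the 13731 genes tested (24.1% higher and 33.9% lower). Rgs5 was 76.8-fold higher in re-isolated controls (log2 6.26 ± 0.78), Myl9 26.9-fold (4.75 ± 0.41), Pdgfrb 19.3-fold (4.27 ± 0.67) and Cspg4 10.03-fold (3.33 ± 0.59). In each of these 4 every re-isolated control lay above every cultured one, which held for 14.2% of genes. Acta2 (2.10 ± 0.44), Tagln (2.15 ± 0.65) and Myh11 (2.94 ± 0.79) were higher with overlapping ranges, the Tagln call being lost without cultured control 2 (0.0570), with the replicate block (0.130) and against the marked controls by header (0.0626) or description (0.100), and the Myh11 call against the latter (0.0964). Cnn1 did not pass (1.13 ± 0.60, adjusted p = 0.121 by limma), but passed against the unmarked controls by header (0.0330) or description (0.0235) and without re-isolated control 9 (0.0249). Mcam was 5.76-fold lower (-2.53 ± 0.38), all re-isolated controls lying below all cultured ones, as in 24.7% of genes. The median of all genes was -0.23 in this comparison.

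In N1OE the same comparison gave 6 markers higher and Mcam lower of 8 tested, where 58.2% of genes passed (25.3% higher and 33% lower). Rgs5 (log2 7.32 ± 0.49), Myl9 (6.3998 ± 0.41), Myh11 (3.31 ± 0.48), Acta2 (3.26 ± 0.31), Tagln (2.10 ± 0.58) and Cspg4 (1.39 ± 0.46) were higher in re-isolated cells. Pdgfrb gave 0.72 ± 0.57 (adjusted p = 0.291 by limma), and without cultured N1OE replicate 1, its highest cultured library, 1.54 (0.0122), and it passed with the replicate block (0.0209). Mcam was lower by 1.15 ± 0.41 on the log2 scale (0.0260), a call lost without cultured N1OE replicate 1 (0.118) or re-isolated N1OE replicate 2 (0.0523), without a filter on low values (0.113), with median ratio scaling (0.0726) and with cultured N1OE replicates 2 and 3 averaged (0.0505). All re-isolated N1OE libraries had less Mcam than all cultured ones, as did 36.5% of genes, and the reverse held for Acta2, Tagln, Myl9, Myh11 and Rgs5 and for 26.7% of genes. The Tagln call was lost without any 1 of the cultured N1OE libraries (0.0665, 0.0609 and 0.0729) and at a pseudocount of 5 CPM (0.0516). The Cspg4 call was lost without cultured N1OE replicate 2 (0.0541) or re-isolated N1OE replicate 1, 2 or 3 (0.0674, 0.0647 and 0.0551), without a filter (0.107) and with the averaged library (0.0625).

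The effect of N1OE itself was compared between the settings with an interaction term. Only Pdgfrb passed, 1 of 9 against 3.27% of genes (2.36% higher and 0.91% lower): its log2 change was 3.79 in culture and 0.25 in re-isolated cells, a difference of -3.55 ± 0.99 (adjusted p = 0.0476 by limma). That call was lost in 20 of the 23 fits that left out 1 library, with an adjusted p of at most 0.205. For Acta2 (1.17 ± 0.61, 0.389), Myl9 (1.65 ± 0.59, 0.144), Rgs5 (1.06 ± 1.10, 0.735), Mcam (1.37 ± 0.65, 0.329) and Cspg4 (-1.94 ± 0.87, 0.289) the difference between settings did not pass. Against the unmarked controls by header Acta2 passed too (1.81, 0.0325), its fall in culture being the larger, but not by description (0.171).

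The order of the 5 groups differed between markers. By mean log2 CPM, Acta2 ran from re-isolated controls through N1KO, re-isolated N1OE and cultured controls to cultured N1OE, and neighbours overlapped except the last pair. Myl9 was highest in N1KO, then in re-isolated controls and re-isolated N1OE, and the gaps from re-isolated N1OE to cultured controls and on to cultured N1OE were free of overlap. Rgs5 was highest in re-isolated N1OE, overlapping N1KO, and its only gap without overlap lay between re-isolated controls and cultured N1OE. Mcam alone was highest in culture, with cultured N1OE and cultured controls first, re-isolated N1OE next, and re-isolated controls and N1KO last, each overlapping its neighbour. Pdgfrb also overlapped at every step, with N1KO first and cultured controls last.

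The genes whose log2 CPM ran most like a marker over the 23 libraries are given as a description, since the points share 2 kits and 5 groups. For Acta2 these were Gdnf (Pearson r = 0.96, and 0.82 after group means were subtracted), Ccn4 (0.95 and 0.80) and Fhl1 (0.94 and 0.59). For Rgs5 they were Chodl (0.95 and 0.71), Sparcl1 (0.95 and 0.63) and S1pr3 (0.95 and 0.62). For Pdgfrb they were Adamts2 (0.93 and 0.87), Piezo2 (0.91 and 0.86) and Dpyd (0.89 and 0.62), and for Mcam Plekhg1 (0.92 and 0.79), Sipa1l2 (0.91 and 0.62) and Rprd2 (0.89 and 0.47). For Myl9, Plscr4, Slc2a10 and Sphk1 had r of 0.97, 0.96 and 0.96 over all libraries and 0.44, 0.28 and 0.46 within groups. Cspg4 ran most like Islr, Barx2 and Pard3b (0.92, 0.89 and 0.88), Tagln like Mustn1, Tfpi2 and Lpl (0.91, 0.90 and 0.89), Myh11 like Taf7l, Enpep and Rhoh (0.87, 0.86 and 0.84), and Cnn1 like F3, Oit3 and Fhl1 (0.85, 0.79 and 0.78). No marker was among the 3 nearest genes of another.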

How the data were processed

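RNA from 23 libraries of iPax3-derived cells had been sequenced, and the log2 CPM table the authors deposited was used, with groups taken from the labels. Trimmomatic 0.33, FastQC, featureCounts, edgeR and the mouse build mm10 are named in the submitters' processing notes, while the aligner and the gene annotation are not given in the sources used here. CPM was recovered as 2 to the power of the deposited log2 value less the prior count, 0.0548 CPM. Whole reads came out, at a tolerance of 0.05 reads, for every value checked, 11846 to 14479 in each of the 23 libraries. The highest counts were rounded without this check. Library totals bound the precision, and limits from 3 reads cover counting error only. Differences were tested on log2 CPM with limma 3.58.1 (R 4.3.3, trend on mean level, two-sided) over all genes with at least 1 CPM in 3 libraries of the fit, with p-values adjusted after Benjamini-Hochberg. The 3 re-isolated groups were fitted together, the cultured groups in a fit of their own, each comparison of settings on its 2 groups, and the difference of N1OE effects as an interaction in a fit of all 5 groups. The tests were tried on simulated data. Alternatives were pseudocounts of 1 and 5 CPM, other filters on low values, median ratio scaling, limma-voom on recovered reads, a replicate block, the marked or unmarked controls alone (split by header or by sample description), and leaving out each library. Beside the markers, the text names up to 4 genes per list and comparison with the smallest p among those that passed, the 3 genes most like each marker by Pearson r, and a few genes chosen after their values were seen (Srf, Pax7 and Des between control sets, Cdh5 and Ptprc). The markers and lists were chosen with earlier results of these data known. Gene positions and exon lengths are from GENCODE M21, in which 21224 gene IDs were found, and promoters from RefSeq. Tables and figures were made with Python 3.11.15, pandas 2.3.3, numpy 2.4.6 and matplotlib 3.10.9.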

Additional observations from a re-analysis of the deposited data

Results flagged for a closer look

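Dixon's test looked for a library far from the others in 27 sets, each a marker in a group of 4 or 9 libraries. By chance it marks about 1 in 20 sets of independent, normally distributed values. CPM values need not be normal, and the sets of different markers share libraries. Cultured control replicate 4 stood above the other 3 cultured controls for Myh11 (1.96 CPM), Pdgfrb (31.9 CPM) and Rgs5 (1.90 CPM). Re-isolated N1OE replicate 3 stood above its group for Myh11 (11.8 CPM). The change of Pdgfrb with N1OE differed between culture and re-isolated cells, with a log2 difference of -3.55 by the interaction term.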

How the results depend on the processing

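The markers that passed in culture, 3 in number, came to 1 at a pseudocount of 5 CPM, 1 without a filter on low values, 1 at a minimum of 5 CPM, 0 without the 2 cultured libraries described in another form, and 0 with cultured N1OE replicates 2 and 3 averaged, an alternative chosen after seeing the data. The 4 in re-isolated N1OE came to 1 without a filter, 2 against unmarked controls by header and 1 by description. N1KO gave 1 against marked controls by header. The interaction, 1 marker, gave 0 at a pseudocount of 5 CPM, without a filter, against marked controls by either label, against unmarked controls by description and with the averaged library, and 2 against unmarked controls by header. The 2 between control sets came to 1 without a filter and 0 split by description. With the replicate block, re-isolated N1OE gave 1 marker (Rgs5, log2 2.43) and the interaction 0, while Rgs5 passed in culture (2.24). Whether replicate numbers pair the libraries in culture is not settled. The same-number correlations there were 0.04, 0.07 and 0.47. Control replicates 1 and 3, but not 2, correlated best with the N1OE library of the same number. Leaving out 1 library gave 0 to 5 markers in culture, 1 to 4 in re-isolated N1OE, 0 to 0 in N1KO, 1 to 2 between N1OE and N1KO, 7 to 9 and 4 to 6 between settings in controls and N1OE, 0 to 1 for the interaction and 1 to 2 between control sets. Estimates that did not pass turned sign as follows. At a pseudocount of 5 CPM the interaction gave -0.19 for Cnn1 and -0.26 for Myl9, and N1OE against N1KO gave -0.18 for Myh11. With marked controls by description the interaction of Tagln was 0.31 and Cspg4 was -0.0916 in N1KO and -0.11 in N1OE, and by header these were 0.27, -0.12 and -0.14. With median ratio scaling Mcam was -0.0290 in culture and -0.0351 between control sets, and Cspg4 -0.0357 in re-isolated N1OE. With the replicate block Mcam was -0.44 in culture, the interaction of Tagln 0.0263, Cnn1 -0.12 and Cspg4 -0.21 in N1KO, and Cspg4 0.23 between N1OE and N1KO. With unmarked controls by description the interaction of Myh11 was -0.24 and Rgs5 in N1KO -0.22, and by header the interactions of Myh11 and Rgs5 were -0.30 and -0.29 and Rgs5 in N1KO -0.61. Without the 2 libraries described in another form Mcam was -0.0699 in culture. Leaving out 1 library moved Mcam in culture from -0.44 to 0.44, the interactions of Tagln from -0.76 to 0.59 and Myh11 from -0.46 to 0.98, Myh11 and Cspg4 between N1OE and N1KO from -1.27 to 1.39 and from -0.48 to 0.44, Cspg4, Myh11 and Cnn1 in N1KO from -0.35 to 0.52, from -0.17 to 2.50 and from -0.62 to 1.80, Cspg4 in re-isolated N1OE from -0.22 to 0.50, and Mcam and Pdgfrb between control sets from -0.21 to 0.22 and from -0.20 to 0.0811. The cause was not tested for any of these. Depth limits Tagln, Cnn1 and Myh11 in culture most.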
